A study of Mus musculus with 10 samples.

Results

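The genes described here are 10 genes of major histocompatibility complex (MHC) class I presentation in mouse liver, H2-Q1, H2-Q2, H2-Q4, H2-Q6, H2-Q7, H2-Q10, H2-K1, H2-D1, H2-T23 and B2m, among 55401 genes in the count files. They were found by matching these symbols to the Ensembl gene identifiers of the files. H2-Q1 was chosen by its counts in this comparison, which nearly vanished in the knockout livers, so its difference between genotypes is given below as a description, with no test. The comparison asked which liver genes depend on Thrb, the gene of thyroid hormone receptor beta.

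Whole liver RNA was sequenced from 5 wild-type mice and from 5 littermates with a liver-specific deletion of Thrb (Thrb hep-/-), each mouse giving 1 library. In the knockout the floxed Thrb gene is cut by Cre recombinase under the Afp promoter, which is active in fetal liver cells, so cells of the liver outside that lineage can keep an intact gene. The strain is given as C57Bl6/J in the sample titles and spelled C56Bl6/J elsewhere in the labels. All mice had free access to standard chow and water under a light-dark cycle, with no further treatment. Sex, age, time of collection and whether the wild-type littermates carried Cre are not given in the sources used here.

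An MHC class I molecule is a heavy chain that binds beta-2-microglobulin and a short peptide made by the proteasome and carried into the endoplasmic reticulum by the TAP transporter. In the mouse, the classical heavy chains H2-K1 and H2-D1 show such peptides to CD8 T cells on almost every cell. The genes of the Q and T regions, next to H2-D1 on chromosome 17, encode non-classical heavy chains, among them the secreted H2-Q10, a protein made mainly by the liver. Interferon, NF-kB and the activator NLRC5 are the known inducers of this gene family.

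The libraries held between 26477195 and 28590704 counts, and 3 counts corresponded to between 0.105 and 0.113 CPM, the count scaled to the library total. Levels below are normalized CPM, that is CPM after TMM scaling, and fold changes are log2 values of Thrb hep-/- over wild-type, so that a negative value is lower in Thrb hep-/- livers. Thrb itself, measured over the whole gene, fell by 0.32 ± 0.0666 (log2, SE, edgeR adjusted p = 0.0359). Its normalized CPM did not overlap between 32.5 to 34.2 in wild-type and 24.9 to 28.8 in Thrb hep-/- livers. Dio1, a classical thyroid hormone target named here after its values were seen, fell by 3.03 ± 0.177 (edgeR adjusted p = 1.26e-05). The 10 hepatocyte markers summed to between 89585 and 132430 normalized CPM in wild-type and between 106817 and 119446 in Thrb hep-/- livers, and 0 of them passed the test.

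H2-Q1 (ENSMUSG00000079507) lies on the plus strand at chr17:35320405-35325099 of GRCm38 (mm10). It was counted in every wild-type liver, with 313, 398, 241, 191 and 260 reads. The 5 Thrb hep-/- livers gave 20, 4, 26, 29 and 10 reads. The highest knockout liver thus stayed well under the lowest wild-type liver. As normalized CPM, the wild-type livers held 11.8, 13.9, 8.61, 7.46 and 9.73 and the Thrb hep-/- livers 0.695, 0.15, 0.892, 0.960 and 0.354. The wild-type mean was 10.3 ± 2.58 (SD, n = 5) and the Thrb hep-/- mean 0.610 ± 0.349 (SD, n = 5), a 16.9-fold difference of the means. The fitted log2 fold change was -4.05 ± 0.344 (SE), the 9th lowest among 12234 genes tested, of which 0.294% had a log2 fold change of -2 or lower. The gene was lower in 5 of 5 Thrb hep-/- livers but not absent, since the lowest of them, Thrb hep-/- 2, still had 4 reads.

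**Figure D1:**
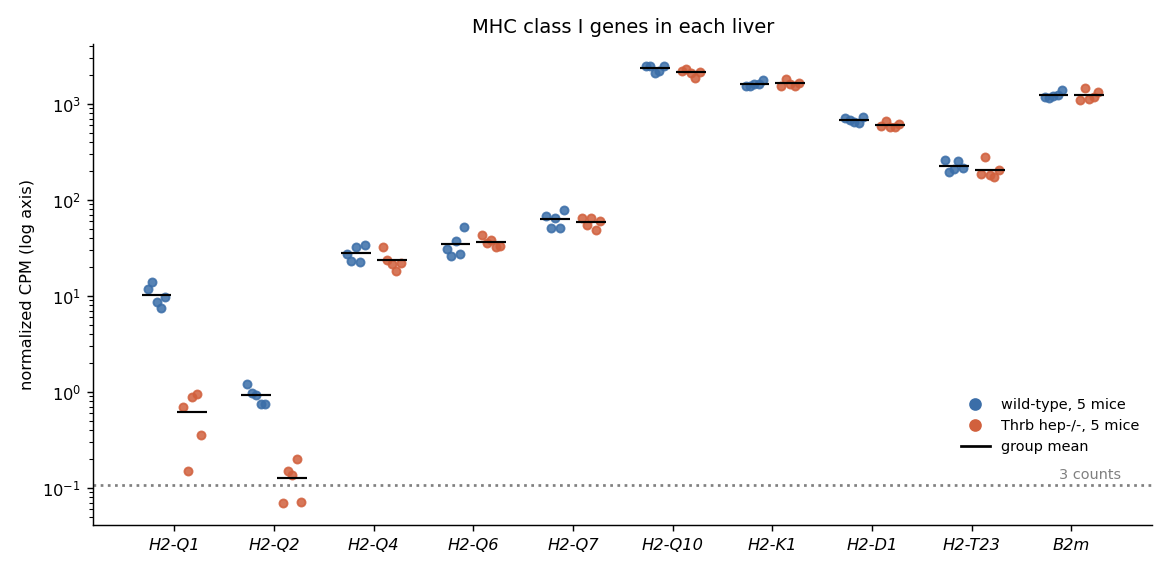
Normalized CPM of the 10 genes on a log axis, 1 point per liver (5 wild-type, 5 Thrb hep-/-), with black lines for the group means and a dotted line at the level of 3 counts. H2-Q1 and H2-Q2 separate completely by genotype (H2-Q1 7.46 to 13.9 against 0.15 to 0.960), whereas the points of the other 8 genes overlap.

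Because the heavy chains are close copies, the sequence shows where an H2-Q1 read can be told from its relatives. The stretches below are shown for that reason, taken from the GENCODE M21 coding sequences on GRCm38, read in the direction of transcription, with capitals marking the bases that differ from H2-Q1. In 184 windows of 60 bases H2-Q1 was identical to a relative, and the first of them along the coding sequence is shown. It lies in exon 2, and H2-D1 had the same sequence.
H2-Q1 (chr17:35320941-35321000, + strand): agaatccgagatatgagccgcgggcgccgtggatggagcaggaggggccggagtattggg
H2-D1 (chr17:35263499-35263558, + strand): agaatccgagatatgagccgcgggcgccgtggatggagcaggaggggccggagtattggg
H2-K1 (chr17:33999824-33999883, - strand): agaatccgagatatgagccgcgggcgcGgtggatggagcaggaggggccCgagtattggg
H2-Q2 (chr17:35342720-35342779, + strand): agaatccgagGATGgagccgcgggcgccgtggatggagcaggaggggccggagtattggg
Over the 60 bases of exon 3 in which H2-Q1 differs most, the nearest relative had 15 mismatches.
H2-Q1 (chr17:35321275-35321334, + strand): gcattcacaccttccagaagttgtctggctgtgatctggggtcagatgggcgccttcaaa
H2-D1 (chr17:35263839-35263898, + strand): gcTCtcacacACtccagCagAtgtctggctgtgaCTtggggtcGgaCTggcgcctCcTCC
H2-Q2 (chr17:35343113-35343172, + strand): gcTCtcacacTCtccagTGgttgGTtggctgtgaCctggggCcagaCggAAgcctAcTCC

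Across the 1104 coding bases of H2-Q1, 184 of 726 windows of 60 bases were identical to another of the 10 genes, and the median distance to the closest one was 5 mismatches. Among the heavy chains, coding identity with H2-Q1 ranged from 82.5% for H2-T23 to 88.2% for H2-D1 and was 86.2% for H2-Q2. Of all 50-base stretches in the H2-Q1 transcripts, 15% also occurred in transcripts of another gene, and of all 100-base stretches 8.05%. The shares of shared 50-base stretches were highest for H2-Q4 (36.4%) and H2-Q6 (35.0%) and 0% for B2m. Reads that mapped to more than 1 place were not counted by the authors, so the level of each heavy chain rests on its distinct stretches. These shares were computed on transcripts alone and not on the genome.

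H2-Q2 (ENSMUSG00000091705, chr17:35342242-35346762, plus strand) is a non-classical gene that begins 21.8 kb downstream of the H2-Q1 start. It was counted with 32, 28, 26, 19 and 20 reads in the wild-type livers. The Thrb hep-/- livers gave 2, 4, 4, 6 and 2 reads, so the genotypes again did not overlap. Its mean was 0.922 ± 0.193 normalized CPM in wild-type and 0.125 ± 0.0553 in Thrb hep-/- livers (SD, n = 5 each), the second value being close to the level of 3 counts. With 1 liver above 1 CPM, H2-Q2 was left out by the study's filter on low counts. Without any filter, where 2.3% of 27817 genes were called, it fell by 2.84 ± 0.367 (log2, SE, edgeR adjusted p = 1.4e-05). With edgeR's own filter, filterByExpr, which kept 14198 genes and called 4.13% of them, 2.51% lower, the log2 fold change was -2.83 ± 0.313 (edgeR adjusted p = 6.9e-04). That filter kept H2-Q2 through its wild-type counts alone, so this second p does not stand apart from the filter. Under filterByExpr, leaving out each liver in turn gave log2 fold changes from -3.06 to -2.68. These fits applied the same filter, so their p-values do not stand apart from it either and are not given. H2-Q1 and H2-Q2 are each other's closest relatives by shared stretches, with 12.9% of the 50-base stretches of H2-Q2 found in H2-Q1 and 9.0% of those of H2-Q1 found in H2-Q2. The part of misplaced H2-Q1 reads in the H2-Q2 counts was not tested.

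The other 8 genes were tested in the same fit. None of the 8 passed the edgeR test (adjusted p under 0.15), against 4.08% of all 12234 genes tested, 2.57% lower and 1.51% higher. None had an unadjusted p under 0.05, and DESeq2 and limma-voom also called 0 of them. None separated the genotypes completely, against 3.64% of all genes tested. Of the 8 fitted values, 6 were below 0 and 2 above, with a median of -0.12 and a range from -0.24 to 0.069, beside a median of 0.00054 over all genes. Every interval of 2 SE around these values lay between -0.57 and 0.42 on the log2 scale, so larger differences were outside the intervals. The interval of H2-D1 alone did not include 0. Fewer cells of a type and less RNA per cell cannot be told apart in whole liver.

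Among the classical heavy chains, H2-K1 (chr17:33996017-34000347, minus strand) held 1545, 1547, 1607, 1619 and 1774 normalized CPM in wild-type livers and 1542, 1797, 1628, 1552 and 1646 in Thrb hep-/- livers. The ranges nearly coincided, and the log2 fold change was 0.013 ± 0.0904 (SE, edgeR adjusted p = 0.97). H2-D1 (chr17:35262730-35267499, plus strand), which starts 57.7 kb before H2-Q1, held 714, 673, 648, 637 and 721 in wild-type and 591, 662, 579, 569.8 and 613 in Thrb hep-/- livers. Only Thrb hep-/- 2 reached into the wild-type range. Its log2 fold change was -0.17 ± 0.083 (edgeR adjusted p = 0.39), the lowest adjusted p among the 8 genes.

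B2m (chr2:122147686-122153083, plus strand), the light chain shared by all class I molecules, is the one of the 10 genes outside the MHC. It held 1189, 1142, 1209, 1251 and 1386 normalized CPM in wild-type and 1084, 1465, 1118, 1167 and 1320.1 in Thrb hep-/- livers, so the knockout range enclosed the wild-type range. Its log2 fold change was -0.0052 ± 0.108 (edgeR adjusted p = 0.99).

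H2-Q10 (chr17:35470089-35474563, plus strand), is the secreted liver heavy chain. Its normalized CPM was 2458, 2473, 2088, 2186 and 2488 in wild-type and 2196, 2333, 2103, 1839.7 and 2152 in Thrb hep-/- livers. The groups overlapped, with the lowest value in Thrb hep-/- 4, and the log2 fold change was -0.14 ± 0.102 (edgeR adjusted p = 0.60).

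H2-Q6 (chr17:35424850-35430055, plus strand) and H2-Q7 (chr17:35439155-35443773, plus strand) encode Qa-2, a class I molecule held in the membrane by a lipid anchor. H2-Q6 ranged from 25.9 to 52.2 normalized CPM in wild-type and from 32.0 to 42.9 in Thrb hep-/- livers, with a log2 fold change of 0.069 ± 0.177 (edgeR adjusted p = 0.92). H2-Q7 ranged from 50.8 to 77.7 in wild-type and from 48.4 to 65.1 in Thrb hep-/- livers, with a log2 fold change of -0.095 ± 0.125 (edgeR adjusted p = 0.81). For both genes the knockout values lay mostly inside the wild-type range. H2-Q4 (chr17:35379617-35385290, plus strand) had a log2 fold change of -0.24 ± 0.162 (edgeR adjusted p = 0.56), with 22.4 to 33.6 normalized CPM in wild-type and 18.1 to 32.6 in Thrb hep-/- livers. H2-Q4 shares 496 bases of exon with the antisense gene Gm11131, and since counting ignored strand and dropped ambiguous reads, reads there were counted for neither gene.

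H2-T23 (chr17:36029773-36032855, minus strand) encodes Qa-1, which presents peptides from other class I leader sequences to NKG2A receptors of natural killer cells. It held 262, 197, 208, 254 and 215 normalized CPM in wild-type and 184, 279, 180.2, 174 and 205 in Thrb hep-/- livers. A single knockout liver, Thrb hep-/- 2, gave the highest value of all 10, and the log2 fold change was -0.15 ± 0.136 (edgeR adjusted p = 0.68). The same liver also had the highest B2m and the lowest H2-Q1.

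Per kilobase of exon, the order of levels in wild-type livers was B2m (1436 ± 108 normalized CPM per kb), H2-K1 (551 ± 31.7), H2-Q10 (538 ± 43.2), H2-D1 (263 ± 14.7), H2-T23 (78.7 ± 10.12), H2-Q6 (16.6 ± 5.17), H2-Q7 (14.7 ± 2.69), H2-Q4 (10.7 ± 1.96), H2-Q1 (3.61 ± 0.903) and H2-Q2 (0.423 ± 0.0885; SD, n = 5). Values per kb overlapped between H2-K1 and H2-Q10 and among H2-Q6, H2-Q7 and H2-Q4, whose ranges were 12.4 to 25.04, 11.9 to 18.2 and 8.62 to 13.0. H2-Q1 was thus a minor heavy chain in wild-type livers, with 0.183% to 0.333% of the summed level per kb of the 9 heavy chains, and 0.0034% to 0.0265% in Thrb hep-/- livers. H2-Q10 alone gave 34.3% to 38.9% of that sum in wild-type and 33.4% to 36.8% in Thrb hep-/- livers. Not scaled by length, its share was 44.5% to 49.4% in wild-type and 43.4% to 47.2% in Thrb hep-/- livers. Its wild-type mean was then 2339 normalized CPM, above 1618 for H2-K1, so order and shares depend on the exon lengths used. The sum of the 9 heavy chains, not scaled by length, was 4999 ± 266 normalized CPM in wild-type and 4684 ± 339 in Thrb hep-/- livers, with ranges of 4694 to 5372 and 4235 to 5184 that overlapped.

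The promoters are shown because H2-Q2 moved with H2-Q1 while H2-K1 and H2-Q10 did not. RefSeq (GRCm38.p6) gave the 250 bases before and 50 after the transcription start for 9 of the 10 genes, all but H2-Q1. Capitals mark matches, on either strand, to 5 strings chosen after the promoters were read. They were an NF-kB site taken from the H2-K1 promoter (GGGGATTCCCC), an interferon response core (GAANTGAAA), a core bound by CREB-type factors (TGACG), the CCAAT box, and a nuclear receptor string that thyroid hormone receptors also recognise (AGGTCA). None of the 5 contains another.
H2-Q2 promoter (chr17:35342057-35342356, + strand): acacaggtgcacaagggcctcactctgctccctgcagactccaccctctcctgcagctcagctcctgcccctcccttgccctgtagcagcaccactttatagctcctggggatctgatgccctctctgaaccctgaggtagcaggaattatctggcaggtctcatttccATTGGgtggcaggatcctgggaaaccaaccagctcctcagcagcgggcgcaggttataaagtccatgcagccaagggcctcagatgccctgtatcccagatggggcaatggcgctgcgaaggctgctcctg
H2-K1 promoter (chr17:34000298-34000597, - strand): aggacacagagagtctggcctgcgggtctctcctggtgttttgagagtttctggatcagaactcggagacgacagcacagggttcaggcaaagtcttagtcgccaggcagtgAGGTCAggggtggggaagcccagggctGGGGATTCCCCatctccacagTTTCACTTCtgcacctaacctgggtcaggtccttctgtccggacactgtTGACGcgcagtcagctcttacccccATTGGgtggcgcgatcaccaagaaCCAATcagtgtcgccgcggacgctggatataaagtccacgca
H2-Q10 promoter (chr17:35469839-35470138, + strand): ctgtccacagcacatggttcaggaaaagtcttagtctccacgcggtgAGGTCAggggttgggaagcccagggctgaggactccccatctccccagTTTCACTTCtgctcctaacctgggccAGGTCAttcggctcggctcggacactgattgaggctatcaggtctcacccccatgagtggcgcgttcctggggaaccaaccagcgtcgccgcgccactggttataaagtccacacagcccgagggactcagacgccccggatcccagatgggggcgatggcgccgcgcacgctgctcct
In these windows H2-Q2 held the CCAAT string and none of the other 4. B2m, with a log2 fold change of -0.0052, also lacked the whole NF-kB, interferon and AGGTCA strings, though it held TGACG and CCAAT. H2-Q4 lacked AGGTCA, H2-T23 lacked the NF-kB and interferon strings, and neither gene was called. Whether any of these strings bears on the fall of H2-Q2 was not tested. The NF-kB string was found in H2-Q6, H2-K1 and H2-D1, and in 0.0304% of 32851 mouse promoter windows of the same length. Its match in H2-K1 was fixed, since it was taken from there. H2-Q7 held the string but for its last base, so a promoter without the whole string can hold a near match. The interferon core was found in H2-Q4, H2-Q6, H2-Q7, H2-Q10, H2-K1 and H2-D1, against 1.83% of all windows. H2-Q2, H2-T23 and B2m, which lacked the whole core, each held it but for a single base. AGGTCA was found in H2-Q6, H2-Q7, H2-Q10, H2-K1, H2-D1 and H2-T23 (16.3% of all windows). TGACG was found in 5 of the 9 (20.8%) and CCAAT in 8 of the 9, all but H2-Q10 (37.4%). A match of letters is a description of the sequence and not a measured binding site.

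The neighbours of H2-Q1 on chromosome 17 were then compared. In the MHC between the start of Tapbp and the end of Mog (chr17:33915899-37023398), 100 genes were tested. Besides H2-Q1, 4 of the other 99 (4.04%) passed the edgeR test, beside 4.08% of all genes tested, 6.43% of 513 genes elsewhere on chromosome 17 and 3.97% of 11621 genes on other chromosomes. No gene within 250 kb of the H2-Q1 start was called among 21 tested, nor any of the 6 within 100 kb. H2-Q2 was not among these, since the filter left it out. The median log2 fold change of the 21 was -0.10. H2-Q3, annotated as a pseudogene of the Q region, had 0 counts in all 10 libraries, which allows up to 3 counts in each. Whether the mice of both genotypes carried the same MHC haplotype was not tested, and the count files hold no alleles.

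The 4 other called genes of the MHC lay farther away. C2, a complement protease component, fell by 0.54 ± 0.134 (log2, SE, edgeR adjusted p = 0.0744), from 30.3 ± 2.82 to 20.8 ± 4.55 normalized CPM. C2 shares 1817 of its 3872 exon bases with Gm20547 and Zbtb12, where ambiguous reads were dropped. C4b, its binding partner in the classical complement pathway, fell by 0.60 ± 0.157 (edgeR adjusted p = 0.0887), and its counts can be split with a near-identical copy, C4a. Ddah2, which degrades methylated arginines, rose by 0.63 ± 0.155 (edgeR adjusted p = 0.0744), without overlap between 1.68 to 2.22 and 2.44 to 3.68 normalized CPM. Calls for C2, C4b and Ddah2 were kept in 16, 13 and 15 of 18 other settings, and the MHC genes called besides H2-Q1 went from 4 to 1 without wild-type 2, 7 without wild-type 3, 0 without wild-type 5, 8 without Thrb hep-/- 1 and 2 without Thrb hep-/- 3. The fourth gene, H2-Ab1, belongs to class II and is described with that list.

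**Figure D2:**
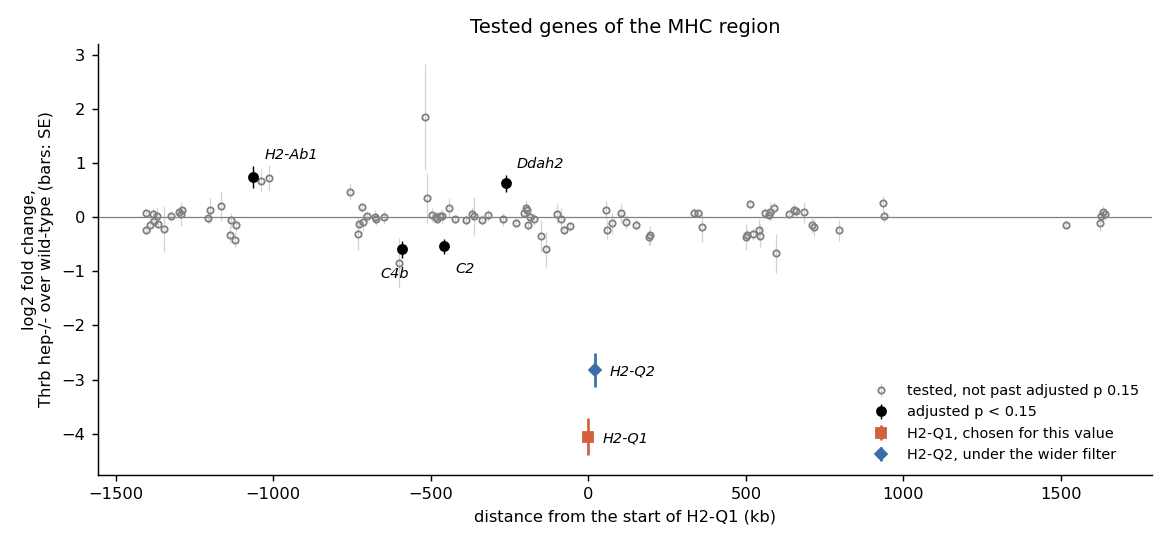
Log2 fold change (Thrb hep-/- over wild-type) of tested genes between Tapbp and Mog against the distance of their start from the H2-Q1 start in kb, with bars of 1 SE; filled points have an edgeR adjusted p under 0.15. H2-Q1 (-4.05, chosen for this value) and H2-Q2 (-2.83, from the fit with filterByExpr) lie far below their neighbours. Under the study's filter, which left out H2-Q2, 0 of 21 neighbours within 250 kb were called, beside 4.08% of all genes tested.

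The further genes of class I presentation were counted by list, beside 4.08% of all genes tested called in either direction and 2.57% called lower. Counts near that share do not set such short lists apart from other genes. Of 30 other class I and class I-like genes, 26 were in the files and 13 were tested. The test called 1 of the 13 (7.69%). It was Raet1e, a ligand of the activating receptor NKG2D on natural killer cells, which fell by 1.61 ± 0.388 (log2, SE, edgeR adjusted p = 0.0697). Its normalized CPM was 3.67, 1.33, 4.0, 1.02 and 1.98 in wild-type and 0.973, 0.562, 0.686, 0.596 and 1.10 in Thrb hep-/- livers, with wild-type 4 inside the knockout range. Raet1e shares 496 of its 2159 exon bases with H60b and Raet1d, where ambiguous reads were dropped. It also has close copies whose reads can be split with it, and its call was kept in 3 of the 10 fits that left out 1 liver. It was lost without Thrb hep-/- 3 (edgeR adjusted p = 0.177) or Thrb hep-/- 4 (0.154), and without wild-type 1, 2, 3 or 5 or Thrb hep-/- 5 the gene no longer passed the filter on low counts. The list's median log2 fold change was -0.11. H2-T22, a ligand of gamma-delta T cell receptors, had a log2 fold change of -0.19 (edgeR adjusted p = 0.65), Cd1d1, which presents lipids, -0.0066 (0.99), Fcgrt, the neonatal Fc receptor chain, 0.15 (0.44), and Hfe, which acts in iron sensing, -0.089 (0.80).

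None of 20 genes of peptide supply and loading passed the edgeR test, against 4.08% of all genes tested. Of the 20 genes, 4 had an unadjusted p under 0.05, and the list's median log2 fold change was -0.035. DESeq2 called 4 and limma-voom 3 of them. The nearest to the threshold was Psmb8, an immunoproteasome subunit, at -0.42 ± 0.132 (edgeR adjusted p = 0.17), with 11.7 ± 1.16 normalized CPM in wild-type and 8.79 ± 1.71 in Thrb hep-/- livers. The peptide transporter genes Tap1 and Tap2 had log2 fold changes of -0.057 (edgeR adjusted p = 0.91) and -0.15 (0.57), and Tapbp, the loading chaperone tapasin, -0.25 (0.21).

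None of 29 tested genes of class I transcription and interferon signalling passed the edgeR test, against 4.08% of all genes tested. Of the 29 genes, 4 had an unadjusted p under 0.05, DESeq2 called 1 and limma-voom 1, and the median was -0.024. Nlrc5, the class I activator, had a log2 fold change of -0.30 ± 0.183 (edgeR adjusted p = 0.52), Irf1, an interferon response factor, -0.0070 (0.99), and Rfx5, a subunit of the factor that binds class I and class II promoters, 0.035 (0.96). Irf7, an interferon-induced activator of interferon genes, had the largest fitted difference of the list, -0.55 ± 0.185 (unadjusted p = 0.0124, edgeR adjusted p = 0.21).

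Class II genes, which serve CD4 T cells and are made mainly by antigen-presenting cells, had positive fitted values in 6 of 8 tested, with a median of 0.37. H2-Ab1 rose by 0.74 ± 0.203 (log2, SE, edgeR adjusted p = 0.112). It held 11.7, 12.6, 19.1, 11.3 and 9.17 normalized CPM in wild-type and 23.5, 17.7, 16.1, 20.4 and 28.9 in Thrb hep-/- livers. Wild-type 3 alone reached into the knockout range, and the call was kept in 9 of 18 other settings (adjusted p 0.0138 to 0.279). It was lost on leaving out wild-type 1, 2, 4 or 5 or Thrb hep-/- 1, 4 or 5. H2-Aa (0.67, edgeR adjusted p = 0.18), H2-Eb1 (0.72, 0.21) and Cd74, the class II chaperone (0.53, 0.40), did not pass. Of the macrophage markers, 12 of 12 tested had fitted values below 0, with a median of -0.61 and 0 called (7 without wild-type 1), and their sum ranged from 193 to 664 normalized CPM in wild-type and from 216 to 432 in Thrb hep-/- livers. The 2 tested dendritic cell markers had fitted values of 0.052 and 0.21, and of 16 T and natural killer cell and 8 B cell markers 1 and 2 passed the filter, with 0 called. The sums of these lists were 3.86 to 6.51 against 3.43 to 6.11 for T and natural killer cells and 10.8 to 21.8 against 9.15 to 20.1 for B cells, so the genotypes overlapped. Of 8 endothelial markers 0 were called, with a median of 0.18. Beside these lists, 4.08% of all genes tested were called. None of these lists has a marker at 0 in all libraries. Their part in the class I and class II values was not tested.

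Beside these, 3 of 31 interferon-stimulated genes tested (9.68%) were called lower, beside 2.57% of all genes tested, and 28 of the 31 had fitted values below 0, with a list median of -0.33 beside -0.12 for the 8 class I genes above. The 3 were the RNA sensor Ddx58, which fell by 0.47 ± 0.103 (log2, SE, edgeR adjusted p = 0.0489), Xaf1, which fell by 0.77 ± 0.179 (0.0627), and Parp14, which fell by 0.39 ± 0.109 (0.105). In all 3 the genotypes did not overlap, as in 3.64% of all genes tested, and the list's calls went from 3 to 5 without Thrb hep-/- 1 or 2 and to 1 without Thrb hep-/- 3. The acute phase genes, many of them for proteins secreted by the liver in inflammation, were the list with most calls. Of 24 tested, 15 (62.5%) were called lower beside the same 2.57%, and 0 higher, with a median of -1.03 (8 called without Thrb hep-/- 3). Saa2 (-6.06), Saa1 (-5.03), Lcn2 (-4.18), Orm2 (-4.09), Mt1 (-2.68) and Apcs (-1.74) had the largest called values. The summed acute phase level was 47743 to 104423 normalized CPM in wild-type and 33575 to 52236 in Thrb hep-/- livers. Its part in the class I values was not tested.

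**Figure D3:**
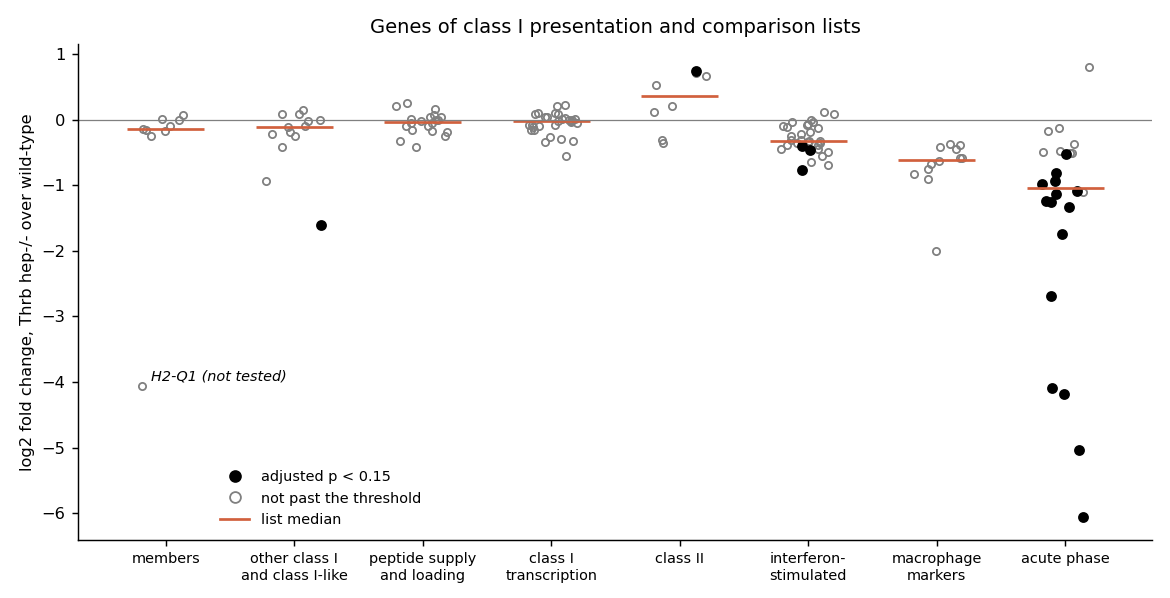
Log2 fold change (Thrb hep-/- over wild-type) of each tested gene by list, with filled points for an edgeR adjusted p under 0.15 and a line at each list's median. Among the class I genes drawn, H2-Q1, shown without a test, stands alone at -4.05. H2-Q2 (-2.83 in the fit with filterByExpr) is not drawn, since the filter on low counts left it out. The medians of the lists of presentation and transcription lie near 0, and 15 of 24 acute phase genes are called lower.

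Across the 10 livers, the genes whose log2 CPM was most like that of H2-Q1 by Pearson correlation were Isyna1 (r = 0.976), which makes inositol phosphate, Dnajc12 (0.966), a co-chaperone, Slc13a5 (0.960), a citrate transporter, the long non-coding RNA gene AC154577.1 (0.958) and Fras1 (0.953), an extracellular matrix protein. Such a correlation over livers of 2 genotypes is high for genes that differ strongly between genotypes, as all 5 genes did, with log2 fold changes of -1.77, -1.71, -3.97, -1.33 and -0.98. None of the 5 lies in the MHC, although AC154577.1 is also on chromosome 17, at 64.8 Mb. In deviations from the genotype means, which set that difference aside, the 5 genes had correlations between 0.425 and 0.759 with H2-Q1. The genes most like it by that measure were Magi3, Prr14l, Chrm3, Gm43429 and Dcaf10, with r between 0.938 and 0.965. Thrb hep-/- 2 was the lowest knockout liver for each of these last 5 genes, as it was for H2-Q1.

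Of the other 8 tested class I genes, H2-D1 was most like H2-Q1 over the 10 livers, with r = 0.615, ranking 877th among all genes. In deviations from the genotype means, B2m (r = -0.84), H2-T23 (-0.82), H2-K1 (-0.72) and H2-D1 (-0.55) ran opposite to H2-Q1. Without Thrb hep-/- 2 these values were -0.66, -0.52, -0.43 and -0.078, so they rest in part on the liver with 4 H2-Q1 reads.

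**Figure D4:**
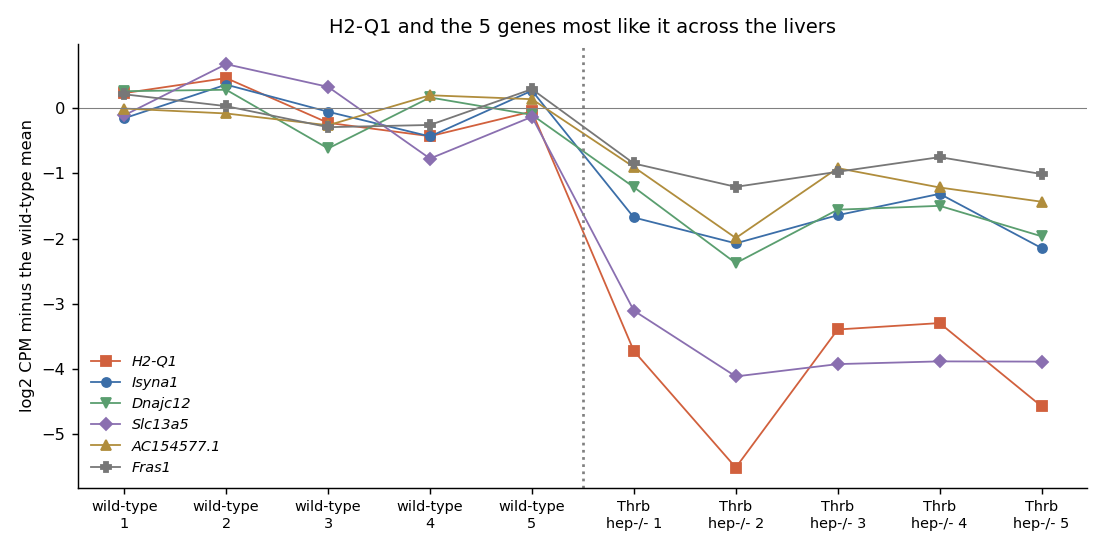
Log2 CPM minus the wild-type mean in each of the 10 livers for H2-Q1 and the 5 genes most correlated with it (r from 0.953 to 0.976); lines join the points of a gene and imply no order. All 6 genes are lower in every Thrb hep-/- liver, H2-Q1 and Slc13a5 by the most.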

How the data were processed

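Liver RNA was prepared by the study as stranded mRNA libraries. Mapping on mm10 (HISAT2 2.2.1) and counting per Ensembl gene (HTSeq 0.9.1, union mode) were done by the authors, who ignored strand and dropped non-unique and ambiguous reads. The deposited values used here are raw counts per gene. A deposited table of the authors' own edgeR 3.36.0 comparison (log2 fold changes, log2 CPM, F statistics and p-values) was not used.

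Counts were fitted with edgeR 4.0.16 in R 4.3.3 after the study's settings: a minimum of 1 CPM in 5 or more libraries, TMM normalization, the robust quasi-likelihood F-test and Benjamini-Hochberg adjustment over all genes tested, with calls at an adjusted p under 0.15. DESeq2 1.42.0, limma 3.58.1 (voom), other filters and scalings, a replicate block and leaving out each mouse were alternatives. P-values measure the spread between mice. Depth was 26477195 to 28590704 counts per library, and limits from counts cover counting error only.

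The 10 genes, the gene lists and their tests were chosen with earlier results of these data known, and named genes are the 10, called genes of each list (at most 6, with up to 4 further genes by role), called genes of the MHC window and the 5 genes most correlated with H2-Q1 by each measure. H2-Q8, H2-Q9, H2-L, H2-T9 and H2-Ea were not matched by symbol. Symbols and coordinates came from GENCODE M21 (GRCm38), and promoters from RefSeq. Mice with the same replicate number did not deviate together (correlations of -0.20 to 0.0091), so no pairing by number was seen and none was used in the main fit. Such correlations cannot show that litters or processing were unpaired.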

Additional observations from a re-analysis of the deposited data

Results flagged for a closer look

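Of 50 groups of 5 values checked for a single library far from the others, 2 had one, where chance gives about 2.5. Slc13a5 in Thrb hep-/- 1 was at 0.903 normalized CPM, while the other 4 Thrb hep-/- livers lay between 0.412 and 0.497, and all 5 were below the lowest wild-type liver at 4.84. The total count of Thrb hep-/- 2 was 27779196, below the other 4 Thrb hep-/- libraries at 28441288 to 28590704 but inside the wild-type range, and its lowest H2-Q1 value is normalized for that total.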

How the results depend on the processing

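H2-Q1 kept its direction in 18 of 18 alternatives, with log2 fold changes from -4.28 to -3.81, and H2-Q2 in 11 of 11, from -3.06 to -2.68, of which those leaving out a liver under filterByExpr were chosen after seeing the data. The genotypes did not overlap for either gene, and H2-Q1 was chosen for its value in these same livers. Their direction was thus set in advance, and keeping it is a description and not a test. Thrb stayed lower and called in 18 of 18 (-0.35 to -0.29, edgeR, DESeq2 or limma adjusted p 0.00098 to 0.133). Of the 9 class I genes other than H2-Q1, 0 were called except H2-Q2, 1 gene, without a filter and under filterByExpr. Those settings called 2.3% of 27817 and 4.13% of 14198 genes. The filterByExpr call does not stand apart from that filter, which kept H2-Q2 through its wild-type counts alone. The signs of the values nearest 0 turned on single livers: H2-Q6 fell to -0.018 without wild-type 2 and -0.0074 without wild-type 4 (range on leaving out each liver -0.018 to 0.27), H2-K1 to -0.00075, -0.0018 and -0.018 without wild-type 1, wild-type 2 and Thrb hep-/- 2 (range -0.018 to 0.049), and B2m reached 0.040, 0.037, 0.028 and 0.013 without wild-type 5 and Thrb hep-/- 1, 3 and 4 (range -0.070 to 0.040).

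Counts of calls depended more on the setting. Genes called numbered 499, 885 by DESeq2, 880 by limma-voom and 222 (without Thrb hep-/- 3) to 665 (without Thrb hep-/- 1) on leaving out a liver, with 227 without wild-type 2 and 239 without wild-type 5. MHC genes called besides H2-Q1 were 4, and 11 by DESeq2, 10 by limma-voom, 7 without a filter and 0 (without wild-type 5) to 8 (without Thrb hep-/- 1) on leaving out a liver. By DESeq2 the lists had 2 other class I, 4 peptide supply, 1 class I transcription, 3 class II, 2 macrophage, 2 endothelial and 1 hepatocyte gene called. By limma-voom they had 3 peptide supply, 1 class I transcription, 8 interferon-stimulated, 1 T and natural killer cell, 2 endothelial and 1 hepatocyte gene. Without a filter 1 peptide supply and 0 class II genes were called. On leaving out each liver, the counts were 0 to 1 for other class I, T and natural killer cell, endothelial and hepatocyte genes, 0 to 3 for peptide supply and class II, 0 to 2 for class I transcription, 1 to 5 for interferon-stimulated (1 without Thrb hep-/- 3), 8 to 17 for acute phase (8 without Thrb hep-/- 3) and 0 to 7 for macrophage genes (7 without wild-type 1). The cause of these changes was not tested. The replicate block called 348 genes, 2 MHC genes and 0 class II genes and gave H2-Q1 at -4.07, and no number correlated best with its own. Depth limits H2-Q2, whose Thrb hep-/- counts of 2 to 6 lie around the floor of 3.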
